A study of Mus musculus with 12 samples.

Results

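The genes described here are the 4 members of the platelet-derived growth factor (PDGF) system named Pdgfra, Pdgfrb, Pdgfa and Pdgfc, which are 2 receptors and 2 ligands. They were taken as every probe set that the array's annotation gives to 1 of these genes alone, which found 8 probe sets for 4 of the 12393 genes on the array. Each gene had 2 probe sets, and 6 of the 8 passed the filter on dim signals (at least 2 of 12 arrays above that array's median probe set). The probe set of highest mean stands for its gene below, and each remaining one is described afterwards. All 4 genes were represented in the test, which covered 7722 genes.

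The cells were muscle progenitors sorted for yellow fluorescent protein from the head and from the trunk of ICR mouse embryos at E9.5, E10.5 and E11.5, where E counts days of gestation. Every group carried Myf5Cre and RosaYFP, so a cell and its descendants are labelled once they have expressed the muscle determination gene Myf5. The Myf5-driven Cre marks a lineage and not a present state, and some labelled cells may no longer be muscle cells. Each of the 6 groups (head or trunk at each of 3 stages) had 2 arrays, and no group had another genotype or a treatment. Whether 2 arrays of 1 group stem from different embryos or litters is not in the labels, so the p-values reflect the spread among these arrays alone, which may be technical.

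PDGF ligands are secreted dimers that bind a pair of receptor tyrosine kinases. Pdgfra encodes the alpha receptor, which binds PDGF-A and PDGF-C and marks embryonic mesenchyme, and Pdgfrb encodes the beta receptor, known for its role in pericytes and vascular smooth muscle. In the mouse somite, PDGF-A made by the myotome acts on neighbouring cells that carry the alpha receptor, and PDGF-C acts in the mesenchyme of the face and palate. PDGF-C is secreted in a latent form that proteases such as tissue plasminogen activator can activate.

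The genes lie at chr5:75151322-75198206 (Pdgfra), chr5:138976014-139000792 (Pdgfa) and chr3:81036416-81214040 (Pdgfc) of GRCm38.p6. Promoter windows of the 250 bases before a RefSeq start, on GRCm38.p6, were found for 3 of the 4 genes. The windows of Pdgfra (chr5:75152001-75152250, plus strand) and Pdgfc (chr3:81036166-81036415, plus strand) are shown because the receptor Pdgfra was lower and the ligand Pdgfc higher in head in the comparison below. Each is written 5′ to 3′ in lower case, with a match to the E-box CANNTG, the core to which myogenic bHLH factors such as Myf5 bind, in capitals.
Pdgfra: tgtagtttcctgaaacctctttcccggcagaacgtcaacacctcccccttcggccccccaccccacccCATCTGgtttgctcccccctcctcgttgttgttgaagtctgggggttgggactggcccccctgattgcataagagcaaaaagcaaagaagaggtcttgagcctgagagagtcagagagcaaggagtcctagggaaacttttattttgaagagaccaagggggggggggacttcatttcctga
Pdgfc: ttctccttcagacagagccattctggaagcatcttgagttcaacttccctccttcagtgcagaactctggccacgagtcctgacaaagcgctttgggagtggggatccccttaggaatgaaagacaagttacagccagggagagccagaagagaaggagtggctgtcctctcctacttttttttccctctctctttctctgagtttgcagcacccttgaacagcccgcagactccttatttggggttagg
The window of Pdgfra lies inside the gene span given above, so the start it precedes is not the first base of that span. The window of Pdgfc ends just before its span. The window of Pdgfra held 1 E-box, 182 bases before the start used for that window, and the window of Pdgfc held none. An E-box on either strand was found in 66.2% of 32851 promoter windows of this length, which makes either outcome common. The GC box GGGCGG, found in 32.7% of windows, was absent from both and was present in both windows listed for Pdgfa. Neither TATAAA (12.4% of windows) nor TAATTA (4.84% of windows) occurred in any of the 4 windows of these genes. The GC content was 54.4% in the Pdgfra window and 50.8% in the Pdgfc window, against a median of 52.4% over all windows.

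The arrays were alike in scale, with median signals between 108.6 and 110.4. Pearson correlations between the 2 arrays of a group ran from 0.957 to 0.981 across the 7722 genes tested, which leaves out dim probe sets. The replicate 1 arrays at E10.5 stood apart in Xist, an RNA made from the inactive X chromosome, at a log2 signal of 7.35 in head and 6.37 in trunk, against 11.89 to 13.1 on the other 10 arrays. Differences and changes of the 4 genes that use these 2 arrays, by the probe set that stands for the gene, are given without them as well. So are those of the other genes whose call was lost without them. Regional genes matched the labels: all 5 head regulators tested (among them Tbx1 and Tcf21) were called higher in head and all 6 trunk Hox genes tested were called lower in head. Mean log2 Myf5 signal lay between 9.31 and 11.11 in the head groups and between 10.15 and 10.19 in the trunk groups. Markers of other cells were also present: all 11 tested endothelial genes, all 4 macrophage genes and 10 of 11 neuronal genes and 7 of 8 epithelial genes were called higher in head over the mean of the stages, against 6.85% of all genes called in this direction. The summed endothelial signal ranged over 1813 to 4792 in head and 728 to 1559.8 in trunk, the neuronal one over 8505 to 16885 in head and 1166 to 8044 in trunk, and the epithelial one over 1662 to 7611 in head and 901 to 2561 in trunk. Isl1 (log2 difference 3.01) was counted both in the neuronal list and among the head regulators. Several genes of these lists and of the marker lists below were above the median probe set on few of the 12 arrays. Examples are Tie1 (2), Dlx5 (3), Robo4 (4), Lhx2 (4), Hoxd9 (5) and Uncx (6). The counts of called genes in the regional and marker lists are therefore a description and not a test. The part of these cells in the results below was not tested, and in such bulk samples fewer cells of a type and less RNA per cell cannot be told apart.

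Both receptors were lower in head than in trunk progenitors over the mean of the 3 stages, and the ligand Pdgfc was slightly higher in head. The ligand Pdgfa leaned towards head without passing the test. The question asked by this comparison is how the labelled muscle lineage of the head differs from that of the trunk. A gene was called where limma's adjusted p was below 0.05 over 7722 genes, and by this rule 3 of the 4 genes were called, against 10.5% of all genes tested. Of the 3, 2 were lower in head (3.61% of all genes) and 1 was higher in head (6.85% of all genes).

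Pdgfra had signals of 991 and 942 in head and 2047 and 1997 in trunk at E9.5. At E10.5 it had 1696 and 826 in head and 3007 and 2499 in trunk. At E11.5 it had 1335 and 985 in head and 3243 and 2827 in trunk. All 6 head arrays lay below all 6 trunk arrays, a separation in this direction that 1.19% of the genes tested showed. The mean log2 difference, head minus trunk, was −1.23 ± 0.16 (SE, n = 6 arrays each; 95% interval −1.57 to −0.88), a signal 2.34-fold lower in head, with adjusted p = 0.000379 by limma. In the 21 alternative settings listed in the closing section this difference stayed between −1.40 and −1.05, with adjusted p from 4.19e-05 to 0.00268. Without both replicate 1 arrays at E10.5 it was −1.35, with adjusted p = 0.000339.

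At single stages Pdgfra was 2.09-fold lower in head at E9.5 (log2 −1.07 ± 0.28 SE, adjusted p = 0.0413, where 5.92% of genes were called). It was 2.32-fold lower at E10.5 (−1.21, adjusted p = 0.032, where 4.52% were called) and 2.64-fold lower at E11.5 (−1.40, adjusted p = 0.0233, where 2.07% were called). These single-stage calls rest on 2 arrays a group and were lost in 10, 4 and 4 of 21 alternatives at E9.5, E10.5 and E11.5, with the value remaining negative in each. At E10.5 the 2 head arrays lay far apart, and without head replicate 2 the difference shrank to −0.69 (adjusted p = 0.0832). Without both replicate 1 arrays at E10.5 it was −1.60 (adjusted p = 0.0414).

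Pdgfrb had signals of 999 and 864 in head and 1436 and 1084 in trunk at E9.5. At E10.5 it had 893 and 615 in head and 1097 and 905 in trunk. At E11.5 it had 628 and 514 in head and 1042 and 1335 in trunk. At each stage both head arrays lay below both trunk arrays, which held for both receptors and for 3.17% of the genes tested, although at E10.5 the gap was narrow and across stages the ranges overlapped. The mean difference was −0.64 ± 0.14 (SE, n = 6 arrays each; 95% interval −0.93 to −0.34), a signal 1.55-fold lower in head, with adjusted p = 0.0107 by limma. In the same 21 alternatives it lay between −0.73 and −0.55, with adjusted p from 0.00765 to 0.0427, and without both replicate 1 arrays at E10.5 it was −0.68 (adjusted p = 0.0313).

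Of the single stages, Pdgfrb was called at E11.5, where it was 2.08-fold lower in head (log2 −1.05 ± 0.24 SE, adjusted p = 0.0442). That call was lost in 12 of 21 alternatives, with adjusted p up to 0.294 without trunk replicate 2 at E11.5. The differences at E9.5 and E10.5 were both −0.43, with 95% intervals of −0.94 to 0.09 and adjusted p of 0.428 and 0.295. Without both replicate 1 arrays at E10.5 the difference at that stage was −0.56 (adjusted p = 0.676) and the call at E11.5 was lost (−1.05, adjusted p = 0.0607). Whether the difference at E11.5 exceeds that at E9.5 is the test of the changes given further on, which Pdgfrb did not pass.

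Pdgfa had signals of 730.1 and 392 in head and 621 and 381 in trunk at E9.5. At E10.5 it had 692 and 722 in head and 445 and 502 in trunk. At E11.5 it had 1024 and 1584 in head and 750.3 and 871 in trunk. The arrays of head and trunk overlapped at E9.5, and both head arrays lay above both trunk arrays at E10.5 and at E11.5, as 28.2% and 21.9% of all genes did at these stages. The mean difference was 0.46 ± 0.18 (SE, n = 6 arrays each; 95% interval 0.06 to 0.86), with adjusted p = 0.147 by limma. At E9.5, E10.5 and E11.5 the differences were 0.14, 0.58 and 0.66, with adjusted p of 0.904, 0.287 and 0.459. Without head replicate 2 at E9.5, the dimmer head array of that stage, the mean difference was 0.61 with adjusted p = 0.0458. Without both replicate 1 arrays at E10.5 the mean difference was 0.44 and the difference at E10.5 was 0.53.

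Pdgfc had signals of 3883 and 3840.3 in head and 2444 and 3900.2 in trunk at E9.5. At E10.5 it had 6104 and 5978 in head and 4870.1 and 5061 in trunk. At E11.5 it had 7499.7 and 8077 in head and 5095 and 5648 in trunk. As for Pdgfa, the groups overlapped at E9.5, where 1 trunk array was as bright as the head arrays, and head lay above trunk at E10.5 and E11.5. The mean difference was 0.38 ± 0.10 (SE, n = 6 arrays each; 95% interval 0.17 to 0.59), a signal 1.3-fold higher in head, with adjusted p = 0.0266 by limma. The call was lost in 9 of 21 alternatives, and without both replicate 1 arrays at E10.5 the difference was 0.37 with adjusted p = 0.167. At E9.5, E10.5 and E11.5 the differences were 0.32, 0.28 and 0.54, with adjusted p of 0.39, 0.327 and 0.172, so none was called at a single stage. The difference at E10.5 was 0.24 without both replicate 1 arrays of that stage.

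**Figure D1:**
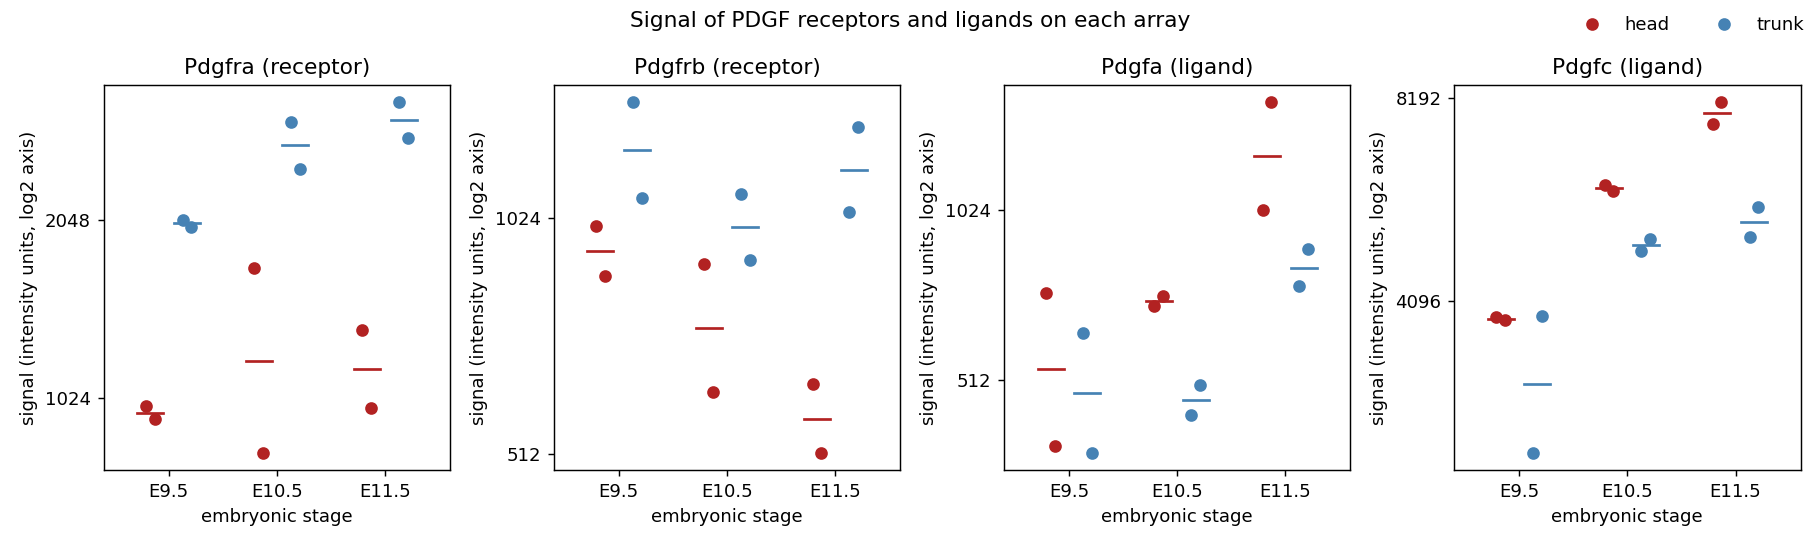
Signal of Pdgfra, Pdgfrb, Pdgfa and Pdgfc (intensity units, log2 axis) by embryonic stage, with head arrays in red and trunk arrays in blue. Points are single arrays and horizontal lines the mean of the log2 signals of the 2 arrays. Both receptors lie lower in head at every stage, and Pdgfc climbs in both tissues to 7499.7 and 8077 in head at E11.5.

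**Figure D2:**
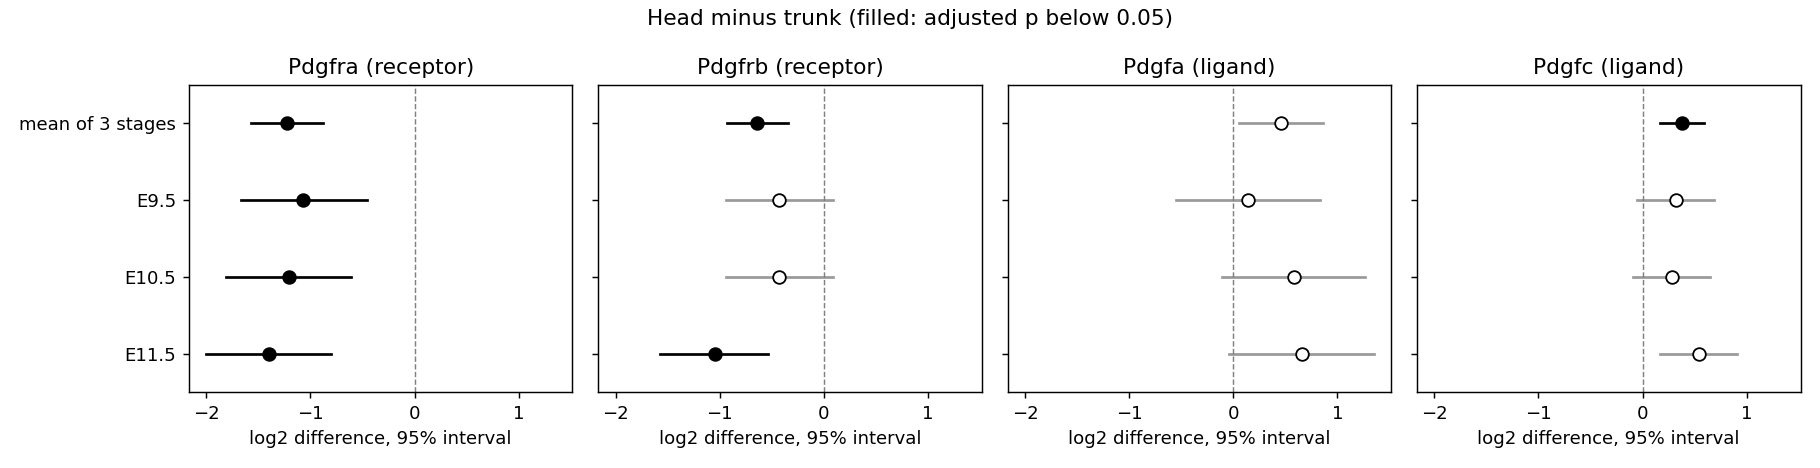
Log2 difference, head minus trunk, of each gene for the mean of the 3 stages and for each stage, with 95% intervals from limma. Filled points passed the adjusted threshold: Pdgfra in all 4 comparisons, Pdgfrb in the mean (−0.64) and at E11.5 (−1.05), Pdgfc in the mean (0.38), and Pdgfa in none.

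Between stages, Pdgfc rose in both tissues and Pdgfa rose in head, while neither receptor passed the test in any interval. Comparisons within a tissue share its arrays, so those that use the same stage are not independent. From E9.5 to E11.5 in head, 2 of the 4 genes were called higher (4.78% of genes were called and 2.75% were called higher). In trunk over the same interval 1 of the 4 was called higher (13.4% called and 8.73% higher).

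Pdgfc was 2.02-fold higher at E11.5 than at E9.5 in head (log2 1.01 ± 0.17 SE, 95% interval 0.64 to 1.38, adjusted p = 0.00498 by limma). In trunk it was 1.74-fold higher (0.80 ± 0.17, interval 0.43 to 1.17, adjusted p = 0.00915). The head call was kept in 20 of 20 alternatives, and the trunk call in 19, being lost without trunk replicate 2 at E11.5 (0.72, adjusted p = 0.073). Without trunk replicate 1 at E9.5, the dim array of that group, the trunk change shrank to 0.46 and was still called. The change from E9.5 to E10.5 was 0.69 in trunk (adjusted p = 0.0308, where 7.2% of genes were called) and 0.65 in head (adjusted p = 0.0996, not called, where 0.958% were called). The trunk call from E9.5 to E10.5 was lost in 5 of 20 alternatives, among them without that same array, where the change was 0.35 (adjusted p = 0.215), and without both replicate 1 arrays at E10.5 (0.71, adjusted p = 0.221). From E10.5 to E11.5 the change was 0.37 in head (adjusted p = 0.298, where 0.984% of genes were called) and 0.11 in trunk (adjusted p = 0.909, where 0.0259% were called). Without both replicate 1 arrays at E10.5 these changes were 0.38 in head and 0.08 in trunk. The head change from E9.5 to E10.5 was then 0.63.

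Pdgfa was 2.38-fold higher at E11.5 than at E9.5 in head (log2 1.25 ± 0.32 SE, 95% interval 0.56 to 1.94, adjusted p = 0.0436 by limma). In trunk the change was 0.73 (interval 0.04 to 1.42, adjusted p = 0.163). The 2 head arrays lay apart at both stages, at 730.1 and 392 and at 1024 and 1584 as given above. The call was lost in 12 of 20 alternatives, with the change at 0.80 (adjusted p = 0.233) without head replicate 2 at E9.5 and at 1.25 (adjusted p = 0.101) without both replicate 1 arrays at E10.5. From E10.5 to E11.5 the changes were 0.85 in head (adjusted p = 0.217) and 0.77 in trunk (adjusted p = 0.584), and from E9.5 to E10.5 they were 0.40 in head and −0.04 in trunk. Without both replicate 1 arrays at E10.5 the changes from E10.5 to E11.5 were 0.82 in head and 0.69 in trunk. Those from E9.5 to E10.5 were then 0.43 in head and 0.04 in trunk.

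Pdgfra changed by 0.25 from E9.5 to E11.5 in head (95% interval −0.35 to 0.85, adjusted p = 0.721) and by 0.58 in trunk (interval −0.02 to 1.18, adjusted p = 0.204). Pdgfrb changed by −0.71 in head (interval −1.23 to −0.19, adjusted p = 0.125) and by −0.08 in trunk (interval −0.60 to 0.44, adjusted p = 0.877).

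The head change minus the trunk change over E9.5 to E11.5, the test of divergence between them, was called for none of the 4 genes by limma, and none had an unadjusted p below 0.05, against 1.48% of genes called. It was −0.34 ± 0.39 for Pdgfra (95% interval −1.18 to 0.51, adjusted p = 0.836) and −0.63 ± 0.34 for Pdgfrb (−1.36 to 0.10, adjusted p = 0.502). For Pdgfa it was 0.52 ± 0.45 (−0.46 to 1.49, adjusted p = 0.744) and for Pdgfc 0.21 ± 0.24 (−0.31 to 0.74, adjusted p = 0.824). Each of the 4 intervals covers 0 and has an end more than 0.5 from it on the log2 scale, so the data do not show that the tissues changed alike.

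**Figure D3:**
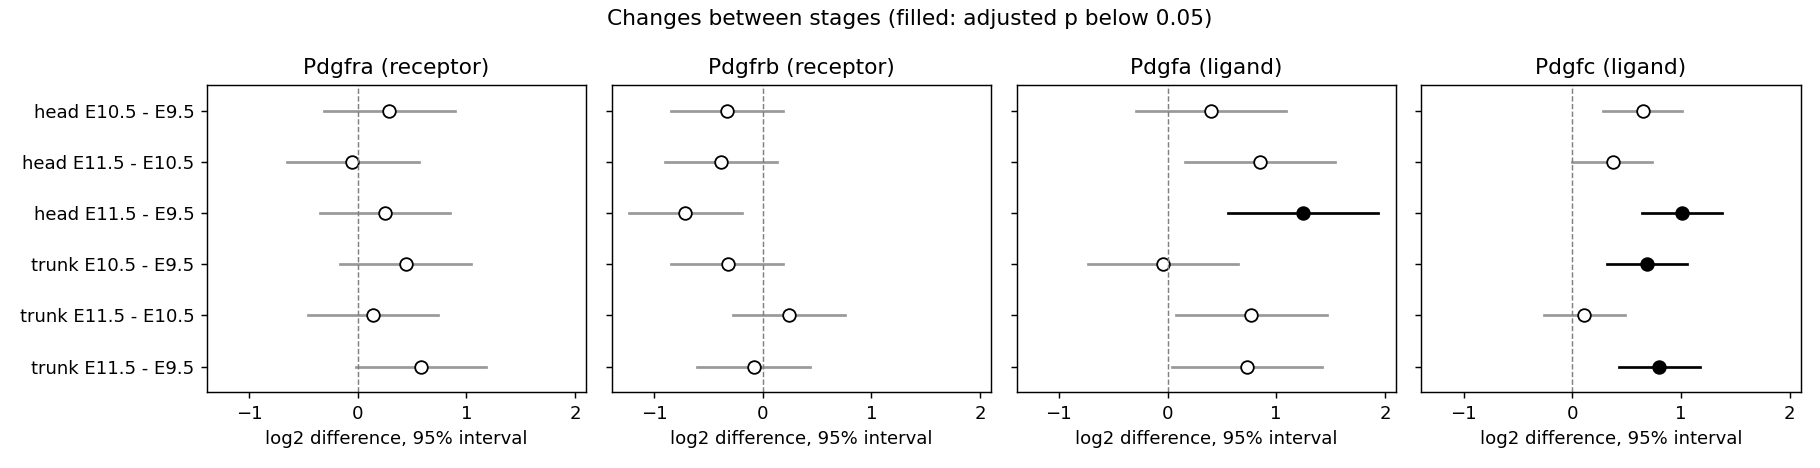
Log2 change of each gene between stages within head and within trunk, later minus earlier, with 95% intervals from limma. Filled points passed the adjusted threshold: Pdgfa in head from E9.5 to E11.5 (1.25), and Pdgfc over the same interval in head (1.01) and trunk (0.80) and from E9.5 to E10.5 in trunk (0.69).

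Ordered by mean log2 signal, Pdgfra was highest in trunk at E11.5 (11.56), then trunk at E10.5 (11.42) and E9.5 (10.98), then head at E10.5 (10.21), E11.5 (10.16) and E9.5 (9.92). Neighbours in this order overlapped except trunk E10.5 with trunk E9.5 and trunk E9.5 with head E10.5. Pdgfrb was highest in trunk at E9.5 (10.28), E11.5 (10.2) and E10.5 (9.96), then in head at E9.5 (9.86), E10.5 (9.53) and E11.5 (9.15), and every pair of neighbours overlapped. The means of the 3 trunk groups thus stood above those of the 3 head groups for both receptors. The share of all genes with such an order was not counted, so the order is a description.

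Pdgfa was highest in head at E11.5 (10.31) and trunk at E11.5 (9.66), then head at E10.5 (9.46) and E9.5 (9.06), then trunk at E9.5 (8.93) and E10.5 (8.88). The first 3 groups did not overlap one another, and the last 4 overlapped from one to the next. Pdgfc was highest in head at E11.5 (12.93) and E10.5 (12.56), then trunk at E11.5 (12.39) and E10.5 (12.28), then head at E9.5 (11.91) and trunk at E9.5 (11.59). Only this last pair of Pdgfc groups overlapped. For neither ligand did all 3 head groups stand above all 3 trunk groups.

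The remaining probe set of each gene pointed the same way between head and trunk. For Pdgfra, 1421916_at was dim, at 21.1 to 66.5 in head and 57.8 to 189 in trunk, with 1 of 12 arrays above the median probe set. Its mean log2 difference was −1.18, given with no test because it did not pass the filter, and it was −0.15 at E9.5. For Pdgfrb, 1417148_at lay below the median on all arrays, at 8.91 to 65.6 in head and 43.1 to 87.8 in trunk, and its mean difference of −1.68 concerns signals in that range. Neither dim probe set gives a measured fold.

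For Pdgfa, 1418711_at had 244 and 258 in head and 180.3 and 157 in trunk at E9.5, and 369.7 and 324 in head and 278 and 124 in trunk at E10.5. At E11.5 it had 329.6 and 417 in head and 188 and 280.5 in trunk, so head lay above trunk at each of the 3 stages, as 5.21% of genes did. Its mean difference was 0.72 ± 0.20 (SE, n = 6 arrays each), called with adjusted p = 0.0444 by limma over 11739 probe sets, while its change in head from E9.5 to E11.5 was 0.56 (adjusted p = 0.468). In this same fit the brighter Pdgfa probe set, 1449187_at, was called in neither comparison (adjusted p = 0.175 for the mean and 0.0561 for the head change). The 2 probe sets agreed in sign in both comparisons.

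For Pdgfc, 1449351_s_at, whose suffix marks probes that may match several transcripts, had 1941 and 2348 in head and 1442 and 1923 in trunk at E9.5. At E10.5 it had 4500.4 and 4155 in head and 3405 and 3621 in trunk, and at E11.5 it had 6573 and 6699 in head and 2970.4 and 4097 in trunk. Its mean difference was 0.53 (adjusted p = 0.0081) and its difference at E11.5 was 0.93 (adjusted p = 0.0313), both called. From E9.5 to E11.5 it was higher by 1.64 in head (adjusted p = 0.000552) and by 1.07 in trunk (adjusted p = 0.00314). Both probe sets of Pdgfc were therefore called in the same direction for the mean and for both changes, with the larger values from 1449351_s_at.

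**Figure D4:**
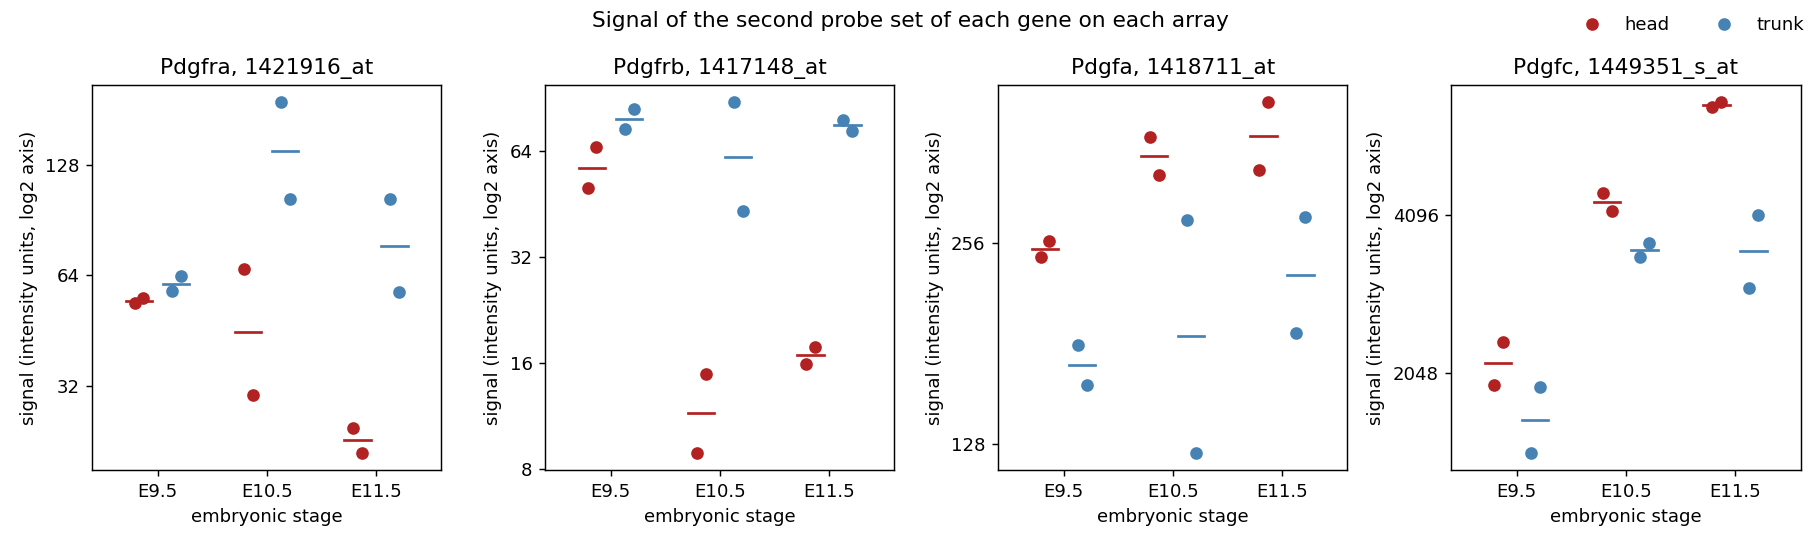
Signal of the remaining probe set of each gene (intensity units, log2 axis) by stage, head in red and trunk in blue, with points for single arrays and lines for the mean of the log2 signals. Head lies below trunk for the dim receptor probe sets, at 8.91 to 65.6 against 43.1 to 87.8 for Pdgfrb, and above trunk for both ligands.

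Of the other ligands and the proteases that process them, 4 of 6 genes passed the filter, and 2 were called lower in head over the mean of the stages (3.61% of all genes). Pdgfb, which encodes a ligand of both receptors that endothelium makes, had 154, 161, 262, 185, 209 and 92.4 in head and 44.9, 62.4, 52.1, 94.1, 60.2 and 58 in trunk, both from E9.5 to E11.5. Its head signal was at least 1.59-fold that of trunk, the trunk signals all being below the median probe set and so raised to it for the bound. It passed the filter through head arrays alone, so its difference is given as a description with no test. All 11 endothelial genes tested were called higher in head, with log2 differences of 0.82 to 2.18. Several of them were likewise dim, with Tie1 above the median probe set on 2 arrays, Robo4 on 4, and Emcn and Eng on 5. Kdr was above it on all 12. The count is therefore a description too, and the part of endothelial cells in the Pdgfb difference was not tested. A further Pdgfb probe set lay below the median on all arrays, at 18.5 to 50 in head and 20.9 to 44.6 in trunk. Pdgfd, which encodes a ligand of the beta receptor, had signals of 2.74 to 10.9 in head and 2.81 to 12.7 in trunk and was below the filter.

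Plat, the tissue plasminogen activator that can activate PDGF-C, had 459 to 938 in head and 996 to 1362 in trunk. All head arrays lay below all trunk arrays, as for 1.19% of the genes tested. It was 1.8-fold lower in head (log2 −0.85 ± 0.12 SE, adjusted p = 0.000676) and kept its call in 21 of 21 alternatives. Pcsk5, a proprotein convertase, was at least 1.46-fold lower in head (−0.90, adjusted p = 0.0178), a call lost in 5 of 21 alternatives, among them without both replicate 1 arrays at E10.5 (−0.81, adjusted p = 0.131). Furin, another convertase, had a difference of 0.30 and was not called. None of these 4 genes was called between E9.5 and E11.5 in head or in trunk, and none had an unadjusted p below 0.05 there.

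Among proteins that bind, hold or remove the receptors, 7 of 10 genes were tested, and 2 were called lower in head (3.61% of all genes). Lrp1, an endocytic receptor that partners the beta receptor, had 335 to 499.7 in head and 506 to 798 in trunk, a 1.52-fold lower signal in head (log2 −0.60, adjusted p = 0.0077). Slc9a3r1, the scaffold NHERF1 that binds PDGF receptors, was 1.54-fold lower in head (−0.62, adjusted p = 0.00829), through a probe set whose suffix _x_at marks probes that may match other genes. Slc9a3r1 also fell from E9.5 to E11.5, by 1.91 on the log2 scale in head (adjusted p = 0.000484) and by 0.95 in trunk (adjusted p = 0.0148), and the trunk call was lost without trunk replicate 1 at E9.5 or at E11.5 (adjusted p up to 0.155). The median log2 difference of the 7 genes was 0.10, against 0 over all genes.

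Of 39 signal transducers below the receptors, 27 were tested, and 1 was called between head and trunk, against 10.5% of all genes. It was Stat3, a transcription factor activated by many receptors, at 132 to 326 in head and 112 to 160.4 in trunk, a 1.72-fold higher signal in head (log2 0.78, adjusted p = 0.0344). The call was lost in 10 of 21 alternatives, among them without both replicate 1 arrays at E10.5 (0.88, adjusted p = 0.0837). The median of the 27 was 0.06, and 6 had an unadjusted p below 0.05. None was called by limma between E9.5 and E11.5 in either tissue, with 1 in head and 2 in trunk at an unadjusted p below 0.05.

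Of 17 early-response genes, which many growth factors and also tissue handling switch on, 13 were tested and 3 were called, all higher in head, against 6.85% of all genes called in this direction. Their median log2 difference was 0.42, against 0 over all genes. Dusp1, a phosphatase of MAP kinases, had 1397 to 2511 in head and 813 to 1246 in trunk and was 1.85-fold higher in head (log2 0.89, adjusted p = 0.00217). Fos was 1.45-fold higher (0.54, adjusted p = 0.00451) and Fosb at least 1.72-fold higher (0.80, adjusted p = 0.0417), the last call being lost in 12 of 21 alternatives, among them without both replicate 1 arrays at E10.5 (0.73, adjusted p = 0.206). The part of tissue handling in these differences was not tested.

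From E9.5 to E11.5, 2 of the 13 early-response genes were called lower in head and 2 in trunk, against 2.03% and 4.71% of all genes called lower. Has2, a hyaluronan synthase, fell in both tissues, by 2.09 in head (adjusted p = 0.00448) and by 1.36 in trunk (adjusted p = 0.0201) on the log2 scale. Dusp6, a phosphatase of ERK kinases, fell by 0.99 in head (adjusted p = 0.0417), and Myc, a growth regulator, fell by 1.33 in trunk (adjusted p = 0.00796). The trunk calls of Has2 and Myc and the head call of Dusp6 were each lost in some alternatives, 4, 2 and 12 of 20, that of Dusp6 also without both replicate 1 arrays at E10.5 (−0.99, adjusted p = 0.0873).

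**Figure D5:**
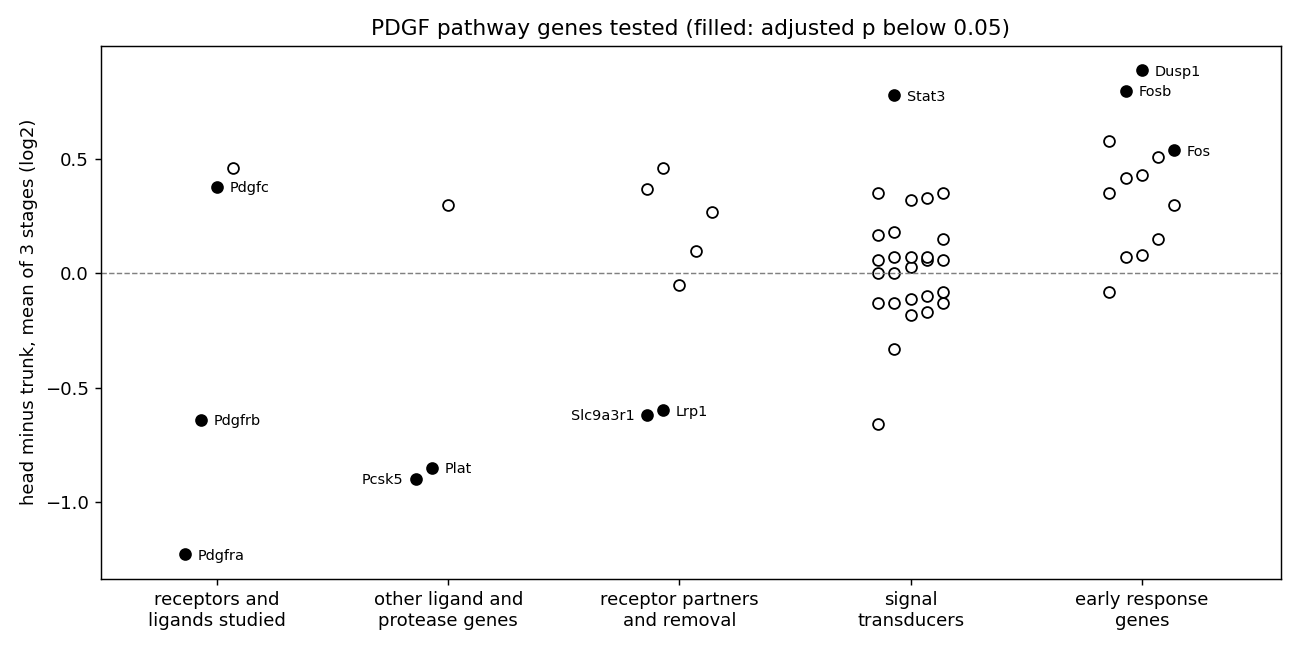
Log2 difference, head minus trunk over the mean of the 3 stages, of the tested genes of the PDGF lists, 1 point a gene, grouped by role, without Pdgfb, whose trunk signals were all below the median probe set. Filled and named points passed the adjusted threshold, from Dusp1 at 0.89 to Pdgfra at −1.23, and the 27 signal transducers have a median of 0.06.

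Genes of cells that carry these receptors moved unevenly. Of 5 tested sclerotome and tendon genes, among them Pax1, Foxc2 and Uncx, 4 were called lower in head (3.61% of all genes) and 0 higher, with a median log2 difference of −1.85. Their summed signal was 474 to 1089.8 in head and 1644 to 4476 in trunk, so it was lower in head together with Pdgfra and Pdgfrb. Of 17 tested mesenchymal and connective tissue genes, 1 was called higher and 3 lower in head (median −0.30), against 6.85% and 3.61% of all genes, with a sum of 14955 to 21349.7 in head and 13678 to 34231 in trunk. That mean joins opposite signs: at E9.5 8 of the 17 were called higher in head and 0 lower (median 0.81, 4.67% of all genes higher), and at E11.5 0 were called higher and 5 lower (median −0.68, 1.36% of all genes lower). Pdgfra was lower in head at both of these stages. From E9.5 to E11.5, 11 of these 17 were called higher in trunk (8.73% of all genes) and 2 in head (2.75%), with 2 lower in head and 0 in trunk, while Pdgfra was called in neither tissue. Of 12 mural genes, which mark the pericytes and smooth muscle where Pdgfrb is known to act, 5 were tested, 1 was called higher in head (6.85% of all genes) and 0 lower, with a sum of 3563 to 11178 in head and 2310.4 to 8419 in trunk. Over the mean of the stages all 5 mural genes had positive differences (0.16 to 0.70) where that of Pdgfrb was negative. At E11.5 3 of the 5 were positive, with Rgs5 at −0.61 and Cspg4 at −0.18, where Pdgfrb was at −1.05. Rgs5 was above the median probe set on 2 of 12 arrays. Abcc9, Kcnj8, Anpep, Mcam, Tagln, Myh11 and Foxf2 were too dim to be tested. Neural crest and ectomesenchyme genes had 3 of 9 called higher in head (6.85% of all genes) and 0 lower, with a median of 0.66. Of the 9, 7 had positive differences, and Tfap2b (−1.20) and Sox10 (−0.04) had negative ones. The part of these cell types in the receptor differences was not tested.

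The ligands were set beside the muscle lists and the lists of other cells. Muscle differentiation genes summed to 2271 to 2669 in head at E9.5, 3111 to 4282 at E10.5 and 13739 to 18846 at E11.5. In trunk they summed to 1057 to 3279 at E9.5, 12125 to 12588 at E10.5 and 15273 to 21809.8 at E11.5. Over the mean of the stages 6 of the 15 tested were called lower in head (3.61% of all genes) and 0 higher, whereas Pdgfc was higher in head. That mean joins stages that differ. At E9.5 3 of the 15 were called higher in head and 0 lower (median 0.17, 4.67% of all genes higher). At E10.5 0 were called higher and 7 lower (median −1.92), where 4.52% of all genes were called. At E11.5 0 were called by limma in either direction (median −0.64), with 2 at an unadjusted p below 0.05. The summed signal of these genes and that of Pdgfc were both higher at E11.5 than at E9.5 in both tissues. Muscle progenitor genes summed to 12522 to 12585 in head at E11.5 and 3496 to 4110.4 at E9.5, and to 7218 to 7950.3 in trunk at E11.5 and 7761 to 8349 at E9.5.

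Other lists moved between these stages as well. Neuronal genes summed to 6277 to 8044 in trunk at E11.5 and 1166 to 1659 at E9.5, with 10 of 11 called higher at E11.5 (8.73% of all genes), while in head 0 were called higher and 1 lower. Macrophage genes summed to 1438 to 1829 in head at E11.5 and 737 to 855 at E9.5, and to 692 on both trunk arrays at E11.5 and 292 to 393 at E9.5. Of the 4 macrophage genes, 1 was called higher at E11.5 in head (2.75% of all genes) and 2 in trunk (8.73%). Epithelial genes went the other way, with 7 of 8 called lower at E11.5 in head (2.03% of all genes) and 5 in trunk (4.71%), and summed to 1662 to 1701 in head at E11.5 and 6845 to 7611 at E9.5. The part of these lists in the changes of Pdgfa and Pdgfc was not tested.

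The 5 genes whose log2 signal was most like that of each member over the 12 arrays were listed by Pearson's r, as a description with no test. The arrays share 2 tissues and 3 stages, so any gene with the same tissue or stage pattern scores high. For Pdgfra they were Sim1 (0.936), Chodl (0.934), Hoxc4 (0.933), Zic1 (0.925) and Hoxa5 (0.924). For Pdgfrb they were Cxcl12 (0.917), Zfp185 (0.909), Foxd1 (0.908), Aff1 (0.884) and Sorl1 (0.883). For Pdgfa they were Nfyc (0.976), Tef (0.929), Tmem109 (0.927), Rgs10 (0.901) and Traf5 (0.897). For Pdgfc they were Mapt (0.969), Tanc1 (0.958), Scarb2 (0.956), Smarcd3 (0.953) and Sytl2 (0.949). No gene was on more than 1 of the 4 lists.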

How the data were processed

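For 12 samples the authors deposited 1 table of Affymetrix mouse array signals per probe set, in linear intensity units. Per the labels' protocols, total RNA of sorted cells was extracted with QIAzol, amplified with a MessageAmp kit and transcribed into biotinylated cRNA. Per the submitters' processing notes the authors ran MAS5 and Affymetrix Expression Console (no versions), and no further scaling is recorded there.

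Controls (64 of 22690 probe sets) were dropped, and 20380 annotated to 1 gene were used (691 had several genes and 1555 none). Symbols were looked up by Entrez identifier for 20351, with 29 not found and 0 changed. Array percentiles lay within 0.0353 (log2) of each other, so log2 was taken of the deposited intensity with no further scaling. Probe sets above the array's median on at least 2 of 12 arrays were kept (11739), and each gene was its probe set of highest mean (7722 genes).

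limma 3.58.1 in R 4.3.3 fitted 1 mean per group with trended empirical Bayes variances (degrees of freedom: 6 residual, 5.87 prior), and gave two-sided p-values with Benjamini-Hochberg adjustment over all genes and a threshold of 0.05, in 11 comparisons. The code was tested on simulated data. A fold is written "at least" where the lower group had arrays under the median probe set, which were raised to that median. The number of arrays limits the precision.

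The replicate numbers were checked for pairing: over 15 pairs of groups, the correlation of same-numbered arrays' deviations ran from −0.3 to 0.17 and was over 0.1 in 2, so no block was used. Named genes are the 4 members, the other ligands measured, up to 6 called genes of smallest adjusted p in each PDGF list for the mean comparison and the E11.5 minus E9.5 changes, and the 5 genes most like each member. The members, the lists and the comparisons were chosen with earlier results of these data known. Alternatives were quantile normalization, median centring, 50 added to the signal, other filters, no trend, the replicate block, the other probe sets, and leaving out arrays.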

Additional observations from a re-analysis of the deposited data

Results flagged for a closer look

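Myc differed between the tissues in its change from E9.5 to E11.5, by the test of that difference (head change minus trunk change 2.21 on the log2 scale, adjusted p = 0.0159 by limma). Its signals were 574 and 455 in head at E11.5 against 271 and 287 in head at E9.5, and 188 and 341 in trunk at E11.5 against 691 and 592 in trunk at E9.5, so every head array was higher at E11.5 and every trunk array lower. The call was lost in 4 of 21 alternatives, with adjusted p up to 0.0714 without trunk replicate 1 at E9.5, and also without head replicate 2 at E9.5 (0.0522), without head replicate 1 at E11.5 (0.0607) and with head and trunk arrays of one stage and number as a block (0.0525).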

How the results depend on the processing

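Pdgfra and Pdgfrb over the mean of the stages kept their call in 21 of 21 alternatives, and Pdgfc in head from E9.5 to E11.5 in 20 of 20. Over all comparisons of the 4 genes, 837 of 922 recomputed values kept their direction and side of the threshold. The scaling alternatives shifted the median of all genes by little, to between −0.018 and 0.021. The cause of the changes below was not tested, beyond fewer arrays or more genes tested where the alternative itself makes them.

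Without both replicate 1 arrays at E10.5, the count of called genes was 447 for head minus trunk over the mean of the stages, 34 at E10.5, 4 for head E11.5 minus E10.5, 94 for trunk E10.5 minus E9.5 and 63 for the difference of changes. It was 0 by limma for head E10.5 minus E9.5 (630 at an unadjusted p below 0.05) and 0 for trunk E11.5 minus E10.5 (398). With 50 added before log2 it was 123 for head E10.5 minus E9.5, 123 for head E11.5 minus E10.5 and 8 for trunk E11.5 minus E10.5. Without a filter it was 49 and 50 for the first 2 of these, and without the trend 192 for head minus trunk at E10.5 and 34 for head E10.5 minus E9.5. Leaving out 1 array gave 534 to 909 genes for the mean, 240 to 455 at E9.5, 51 to 492 at E10.5 and 57 to 172 at E11.5. It gave 2 to 136 for head E10.5 minus E9.5, 6 to 165 for head E11.5 minus E10.5 and 172 to 393 for head E11.5 minus E9.5. It gave 105 to 574, 0 to 5 and 432 to 1082 for the same intervals in trunk, and 57 to 120 for the difference of changes. The counts of 0 came without trunk replicate 2 at E10.5 or at E11.5, with 321 and 276 genes at an unadjusted p below 0.05.

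The check of the replicate numbers gave correlations from −0.3 to 0.17, and the labels do not state whether same-numbered arrays share a source. That check cannot settle whether some arrays are paired. At E10.5 the replicate 1 arrays of head and trunk were both low in Xist (7.35 and 6.37). With the number as a replicate block, Pdgfa in head from E9.5 to E11.5 was 1.25 with adjusted p = 0.0573, and 49 genes were called for head E11.5 minus E10.5. With head and trunk arrays of one stage and number as the block, Pdgfa over the mean was 0.46 (adjusted p = 0.0497), Pdgfrb at E11.5 was −1.05 (0.0583), 213 genes were called at E10.5 and 69 for the difference of changes.

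Without the filter, adjusted p was 0.0507 for Pdgfra at E9.5 (−1.07), 0.0508 for Pdgfrb at E11.5 (−1.05) and 0.0528 for Pdgfa in head from E9.5 to E11.5 (1.25). Without the trend it was 0.0902, 0.0729 and 0.0669 for Pdgfra at E9.5 (−1.07), E10.5 (−1.21) and E11.5 (−1.40), 0.0871 for Pdgfrb at E11.5 (−1.05) and 0.0805 for Pdgfa in head (1.25). It was 0.0884 for Pdgfc over the mean (0.38) and 0.0956 for Pdgfc in trunk from E9.5 to E10.5 (0.69). Without both replicate 1 arrays at E10.5, Pdgfrb at E11.5 was −1.05 (0.0607), Pdgfa in head from E9.5 to E11.5 was 1.25 (0.101), Pdgfc over the mean was 0.37 (0.167) and Pdgfc in trunk from E9.5 to E10.5 was 0.71 (0.221). The uncalled changes of Pdgfra in head turned to −0.23 from E9.5 to E10.5 and to 0.47 from E10.5 to E11.5, and that of Pdgfa in trunk from E9.5 to E10.5 turned to 0.04. With the other probe set, Pdgfa was 0.72 (0.0444) over the mean, 0.56 (0.468) in head from E9.5 to E11.5 and 0.14 in trunk from E9.5 to E10.5. Pdgfc was 0.93 (0.0313) at E11.5, 1.02 (0.0292) in head from E9.5 to E10.5 and −0.01 in trunk from E10.5 to E11.5.

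Leaving out 1 array, Pdgfra ranged from −1.10 to −1.03 at E9.5, −1.73 to −0.69 at E10.5 and −1.62 to −1.18 at E11.5. Its call was lost at E9.5 without any array of that stage, or any trunk array of the other stages (adjusted p up to 0.187). It was lost at E10.5 without head replicate 2 or either trunk array of that stage, and at E11.5 without head replicate 2 or either trunk array of that stage. Its uncalled head changes ranged from −0.23 to 0.81 (E9.5 to E10.5) and −0.56 to 0.47 (E10.5 to E11.5). Pdgfrb at E11.5 ranged from −1.23 to −0.88 and was lost without any array of E11.5, any trunk array of E10.5 or any head array of E9.5. Its trunk change from E9.5 to E11.5 ranged from −0.28 to 0.12. Pdgfa ranged from 0.31 to 0.61 over the mean, −0.31 to 0.59 at E9.5, −0.05 to 0.85 in head from E9.5 to E10.5 and −0.39 to 0.31 in trunk over that interval. In head from E9.5 to E11.5 it ranged from 0.80 to 1.70 and was lost without head replicate 2 at E9.5 or E11.5, any array of E10.5 or any trunk array of E11.5. Pdgfc ranged from 0.27 to 0.49 over the mean and was lost without either head array of E9.5, head replicate 1 at E10.5, head replicate 2 at E11.5, either trunk array of E10.5 or trunk replicate 1 at E11.5. It ranged from −0.01 to 0.66 at E9.5 (called without trunk replicate 2 at E9.5, adjusted p = 0.0107) and from 0.46 to 0.61 at E11.5. Its changes ranged from 0.63 to 0.66 in head and 0.35 to 1.02 in trunk from E9.5 to E10.5, and from 0.46 to 1.13 in trunk from E9.5 to E11.5. At E11.5, and in head from E9.5 to E10.5, it was called without either trunk array of E9.5. Its trunk call from E9.5 to E10.5 was lost without trunk replicate 1 at E9.5 or either trunk array of E10.5. Its difference of changes ranged from −0.12 to 0.55. Pdgfb ranged from −0.77 to 0.41 in head and −0.08 to 0.40 in trunk from E9.5 to E11.5. A lone array left in a group is assumed to vary like the other groups. The correlations of the most alike genes, recomputed in 80 alternatives chosen after seeing the data, moved by at most 0.1 in all 80.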
